A study of Mus musculus with 17 samples.

Results

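Expression of 10 circadian clock genes was examined in the cerebral cortex of mice carrying a knockout of, or a pathogenic substitution in, Hnrnph2, an X-linked gene for an RNA-binding protein. The genes were Arntl, Npas2, Per2, Per3, Cry1, Ciart, Nr1d1, Nr1d2, Dbp and Tef, chosen by name, and each matched a single entry among the 55453 gene symbols of the table. All 10 passed the filter on low values that left 16265 genes for testing. RNA-seq of total RNA from bulk cortex was available for 17 male C57BL/6J mice in 6 groups. At 8 weeks of age there were 3 hemizygous knockout mice (KO), 3 wild-type littermates (KO Control), 3 hemizygous R206W knockin mice (R206W) and 3 wild-type littermates (R206W Control). At 3 weeks there were 3 hemizygous P209L knockin mice (P209L) and 2 wild-type littermates (P209L Control). Both knockin lines carry the human change in the mouse gene, and the KO line carries a frameshift that ends the reading frame early, so the knockin mice kept Hnrnph2 transcript while the KO mice lost most of it. No group received a treatment. The hour of dissection and the lighting schedule were not given in the sources used here. The clock genes were therefore compared mouse by mouse as a possible sign of sampling time and tissue state, and no hour was inferred. Expression is given as TPM, a transcript abundance corrected for transcript length and for library size.

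The mammalian clock is a loop of transcription factors that repeats about once a day in most tissues. The activators ARNTL (also called BMAL1) and its partners CLOCK or NPAS2 bind E-box elements and switch on the Per and Cry genes, whose proteins then repress the activators, and they also switch on Nr1d1 and Nr1d2, whose proteins (REV-ERB alpha and beta) repress Arntl, Cry1 and Npas2 at a separate element. Dbp and Tef are output factors of the PAR bZIP family that act at D-box elements. In mouse tissues Dbp, Tef, Per2, Per3, Nr1d1, Nr1d2 and Ciart peak in the day or around dusk, and Arntl, Npas2 and Cry1 peak late in the night or at dawn, and the arms run out of phase over the day.

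The promoters of the members that carry these elements are printed here because they show the letters through which the loop is known to act. RefSeq promoter windows of 300 bases on GRCm38.p6, the build of the deposited values, from 250 bases before to 50 bases after the annotated start, were found for 9 of the 10 genes, in 11 windows. The capitals mark the E-box CACGTG in Ciart, Cry1 and Tef, the D-box TTATGTAA in Per3 and the nuclear receptor element AGGTCA in Nr1d2 and Arntl, and each run is written on the strand of its gene.
Ciart (chr3:95882179-95882478, minus strand): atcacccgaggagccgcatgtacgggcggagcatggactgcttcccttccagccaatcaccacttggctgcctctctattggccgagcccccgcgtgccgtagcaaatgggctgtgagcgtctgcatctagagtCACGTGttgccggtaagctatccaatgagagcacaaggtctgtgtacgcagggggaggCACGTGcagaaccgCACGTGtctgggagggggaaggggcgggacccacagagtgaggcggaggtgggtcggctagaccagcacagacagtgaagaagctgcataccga
Cry1 (chr10:85185005-85185304, minus strand): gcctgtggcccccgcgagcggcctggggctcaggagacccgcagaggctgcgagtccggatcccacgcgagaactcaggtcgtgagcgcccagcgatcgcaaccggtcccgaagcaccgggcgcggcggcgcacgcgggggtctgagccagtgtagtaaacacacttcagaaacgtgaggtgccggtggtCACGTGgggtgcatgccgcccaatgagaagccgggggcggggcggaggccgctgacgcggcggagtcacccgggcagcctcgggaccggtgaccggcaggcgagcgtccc
Tef (chr15:81811164-81811463, plus strand): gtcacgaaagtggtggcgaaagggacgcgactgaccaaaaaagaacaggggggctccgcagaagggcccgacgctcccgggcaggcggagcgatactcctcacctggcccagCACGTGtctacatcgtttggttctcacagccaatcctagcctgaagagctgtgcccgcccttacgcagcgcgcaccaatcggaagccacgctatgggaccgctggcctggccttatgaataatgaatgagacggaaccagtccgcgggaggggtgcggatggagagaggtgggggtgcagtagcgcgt
Per3 (chr4:151044616-151044915, minus strand): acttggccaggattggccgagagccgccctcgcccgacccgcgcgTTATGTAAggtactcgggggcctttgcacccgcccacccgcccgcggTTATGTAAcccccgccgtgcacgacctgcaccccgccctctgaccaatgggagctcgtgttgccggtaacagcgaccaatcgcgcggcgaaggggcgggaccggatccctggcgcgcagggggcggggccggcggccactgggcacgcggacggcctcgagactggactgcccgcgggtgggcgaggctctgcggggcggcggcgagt
Nr1d2 (chr14:18239057-18239356, minus strand): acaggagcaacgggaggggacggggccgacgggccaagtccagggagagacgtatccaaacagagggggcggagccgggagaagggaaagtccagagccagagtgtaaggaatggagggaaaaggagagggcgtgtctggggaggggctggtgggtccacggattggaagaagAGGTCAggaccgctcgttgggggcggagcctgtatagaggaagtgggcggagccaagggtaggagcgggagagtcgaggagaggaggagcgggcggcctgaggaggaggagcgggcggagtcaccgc
Arntl (chr7:113207261-113207560, plus strand): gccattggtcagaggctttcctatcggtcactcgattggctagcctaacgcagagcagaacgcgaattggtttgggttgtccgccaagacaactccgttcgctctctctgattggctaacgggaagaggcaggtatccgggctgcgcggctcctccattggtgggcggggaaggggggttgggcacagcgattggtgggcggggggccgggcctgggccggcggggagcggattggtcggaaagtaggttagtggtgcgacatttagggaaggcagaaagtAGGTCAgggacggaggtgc
Ciart held 3 E-boxes, beginning 116, 58 and 44 bases before the start. Cry1 held 1 E-box, and each of 2 annotated Tef promoters held 1. Per3 held 2 D-boxes, and the receptor element was found once in Nr1d2 and once in 1 of 2 overlapping Arntl windows, the one printed, beginning at base 32 after the start. On both strands, the E-box occurred in 7.15% of 32851 RefSeq promoters of the same length, the D-box (TTATGTAA or TTACGTAA) in 1.06% and the receptor element in 16.3%. These are matches of letters in 1 window, not binding sites shown by these data. The windows of Dbp, Nr1d1 and Npas2 held none of these elements, and that of Cry1 held no receptor element. Per2 had no entry in the promoter table.

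Markers of cortex were present. Slc17a7, the vesicular glutamate transporter of cortical excitatory neurons, lay between 495 and 912 TPM in all 17 mice. Of the markers of the suprachiasmatic nucleus, where the master clock resides, Six6 was listed at 0 in every mouse, and Lhx1 and Avp did not exceed 0.13 and 0.64 TPM, while Vip, which cortical interneurons also express, ranged from 42.1 to 80.8 TPM. Hnrnph2 itself was at 21.3 to 24.4 TPM in the KO mice and at 80.5 to 160.4 TPM in the other 14 mice, as labelled. The depth of the libraries is unknown because only TPM were given. Among the 17 libraries, KO Control replicate 1 stood apart in that the mitochondrially encoded genes took 20.1% of its TPM (10.7% to 15.4% elsewhere) and its median-of-ratios size factor, the factor that would bring its typical gene level to that of the other libraries, was 0.790 (0.860 to 1.12 elsewhere). P209L Control replicate 2 stood apart in 4 choroid plexus markers, which summed to 1766 TPM against 2.25 to 25.9 TPM in the other mice, and in 5 oligodendrocyte markers, which summed to 4383 TPM against 1714 to 2942 TPM.

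Arntl and Npas2 encode the activators. At 8 weeks Arntl measured 14.8, 22.8 and 25.2 TPM in KO Control, 20.1, 19.8 and 23.6 TPM in KO, 26.1, 23.9 and 20.8 TPM in R206W Control and 21.6, 19.1 and 26.6 TPM in R206W. Arntl was at 16.2 and 16.1 TPM in P209L Control and at 17.4, 15.7 and 18.6 TPM in P209L. Levels of Arntl overlapped among all 4 groups at 8 weeks, and all 5 younger mice lay at or below 18.6 TPM. For the 8-week mice Npas2 measured 11.50, 19.3 and 20.4 TPM in KO Control, 13.4, 13.8 and 20.4 TPM in KO, 18.5, 19.5 and 19.8 TPM in R206W Control and 18.8, 19.6 and 25.3 TPM in R206W. Npas2 was at 10.2 and 10.4 TPM in P209L Control and at 11.9, 11.4 and 16.8 TPM in P209L. Npas2 was lowest at 8 weeks in KO Control replicate 1 and next lowest in KO replicates 1 and 2, and the 3 P209L mice lay above both of their littermates.

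Per2, Per3, Cry1 and Ciart encode repressors of the activators. In the older mice Per2 measured 14.9, 28.5 and 31.8 TPM in KO Control, 16.2, 14.3 and 31.4 TPM in KO, 29.3, 28.1 and 28.6 TPM in R206W Control and 21.6, 23.7 and 37.1 TPM in R206W. Per2 was at 13.0 and 13.9 TPM in P209L Control and at 25.7, 11.2 and 10.5 TPM in P209L. Per2 split the KO group, with 1 mouse at the level of the upper controls and 2 mice near KO Control replicate 1, and it split the P209L group in the same fashion, with 1 mouse high and 2 low. Older mice had Per3 at 18.6, 26.3 and 29.2 TPM in KO Control, 31.4, 23.2 and 31.7 TPM in KO, 24.0, 26.0 and 28.3 TPM in R206W Control and 23.8, 25.7 and 27.8 TPM in R206W. Per3 was at 29.6 and 30.8 TPM in P209L Control and at 27.6, 29.5 and 36.6 TPM in P209L. Per3 was the only member higher in both P209L Control mice than in every wild-type mouse of 8 weeks. For Cry1, the 8-week values were 6.61, 11.9 and 13.98 TPM in KO Control, 9.89, 8.12 and 13.0 TPM in KO, 15.5, 15.0 and 15.7 TPM in R206W Control and 12.5, 11.2 and 15.4 TPM in R206W. Cry1 was at 5.83 and 6.26 TPM in P209L Control and at 8.04, 5.77 and 6.92 TPM in P209L. The 3 R206W Control mice held Cry1 between 15.0 and 15.7 TPM, and all 5 younger mice were at or below 8.04 TPM. Ciart at 8 weeks stood at 23.6, 36.8 and 39.9 TPM in KO Control, 25.2, 29.9 and 49.9 TPM in KO, 36.7, 32.2 and 38.8 TPM in R206W Control and 44.0, 40.0 and 43.5 TPM in R206W. Ciart was at 35.6 and 28.7 TPM in P209L Control and at 27.0, 24.2 and 25.2 TPM in P209L. Ciart was higher in each R206W mouse than in any R206W Control mouse, and lower in each P209L mouse than in either P209L Control mouse.

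Nr1d1 and Nr1d2 encode the REV-ERB nuclear receptors. Levels of Nr1d1 at 8 weeks were 49.7, 90.0 and 104 TPM in KO Control, 69.9, 73.4 and 115 TPM in KO, 76.0, 74.6 and 83.1 TPM in R206W Control and 80.3, 74.8 and 95.3 TPM in R206W. Nr1d1 was at 32.4 and 39.0 TPM in P209L Control and at 23.9, 21.9 and 29.3 TPM in P209L. The older and younger mice did not overlap for Nr1d1, the lowest older mouse being KO Control replicate 1. Nr1d2 at 8 weeks measured 75.4, 100.3 and 94.97 TPM in KO Control, 92.9, 92.1 and 87.6 TPM in KO, 98.4, 104 and 109 TPM in R206W Control and 92.9, 87.8 and 101 TPM in R206W. Nr1d2 was at 60.3 and 59.6 TPM in P209L Control and at 65.3, 53.4 and 67.8 TPM in P209L. Nr1d2 also separated the ages without overlap, with little spread inside either.

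Dbp and Tef encode the output factors. At 8 weeks Dbp stood at 72.7, 91.8 and 101 TPM in KO Control, 96.1, 88.6 and 110.4 TPM in KO, 89.5, 96.1 and 96.8 TPM in R206W Control and 97.5, 91.1 and 97.5 TPM in R206W. Dbp was at 79.6 and 103 TPM in P209L Control and at 58.3, 51.6 and 61.4 TPM in P209L. Dbp in both P209L Control mice lay inside the range of the 8-week mice, replicate 1 only through the low value of KO Control replicate 1. After rescaling by size factors P209L Control replicate 2 was at 111, above the 8-week range of 81.9 to 104. The 3 P209L mice were the 3 lowest of all 17. Values of Tef at 8 weeks were 177, 233 and 241 TPM in KO Control, 226, 208.6 and 235 TPM in KO, 225, 236 and 241 TPM in R206W Control and 231, 226 and 240.1 TPM in R206W. Tef was at 193 and 197 TPM in P209L Control and at 170.4, 184 and 184 TPM in P209L. Tef was the most abundant and the most even member. Mean TPM over 17 mice ran from 215 for Tef through 87.2 for Dbp, 84.8 for Nr1d2, 66.7 for Nr1d1, 34.2 for Ciart, 27.6 for Per3, 22.3 for Per2, 20.5 for Arntl and 16.5 for Npas2 to 10.7 for Cry1. Of neighbours in that order only Tef and Dbp differed by more than the sum of their SDs over the mice.

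**Figure D1:**
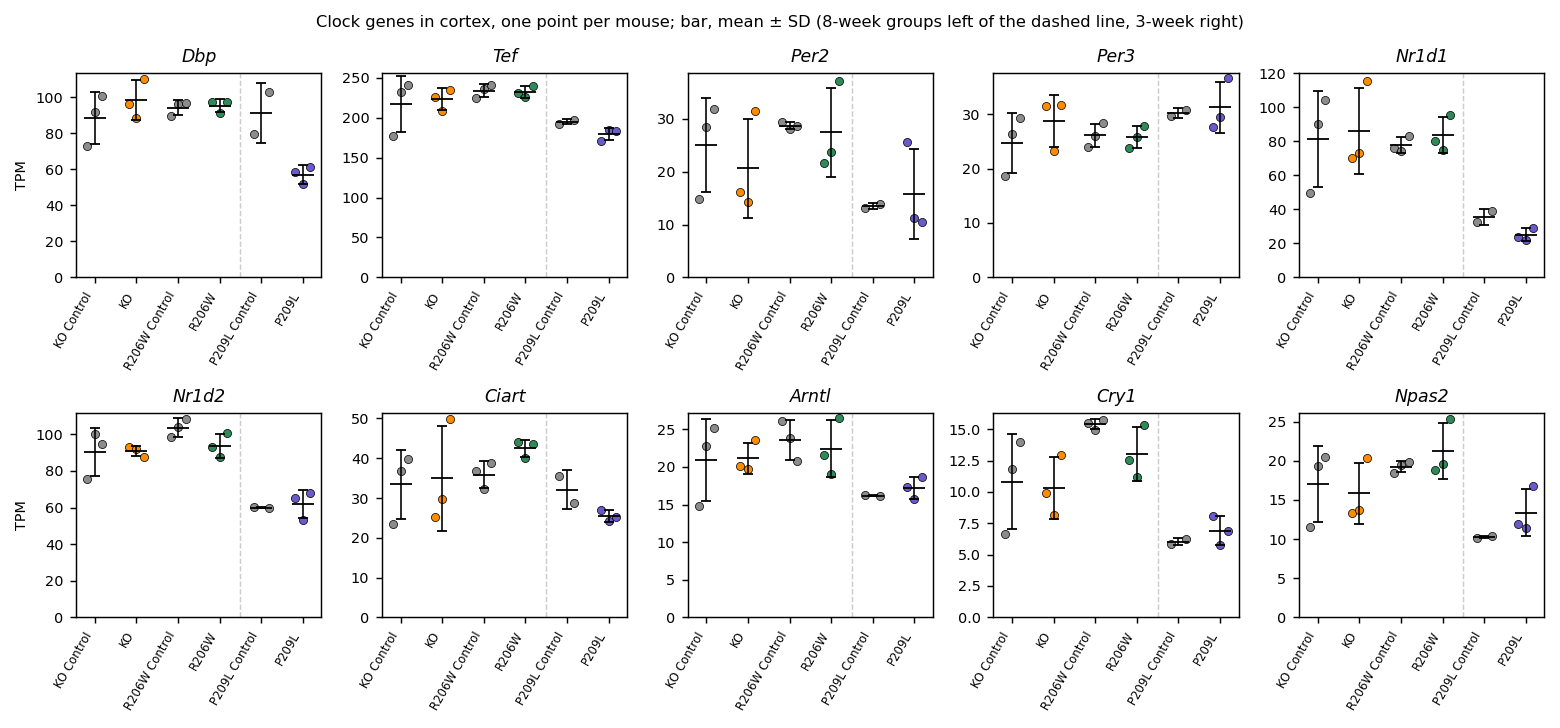
TPM (y axis, starting at 0) of each clock gene in each of 17 mice, by group (x axis), with the group mean and SD as bars; P209L Control has 2 mice and every other group 3. Dbp is lowest in the 3 P209L mice (51.6 to 61.4 TPM), and Nr1d1, Nr1d2 and Cry1 are lower in both 3-week groups than in most or all 8-week mice.

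Loss of Hnrnph2 was not accompanied by a called difference in any clock gene. In KO against KO Control, 0 of 10 members passed an adjusted p of 0.05 with limma, where 0.00615% of all genes tested passed, and no member had groups that did not overlap, against 6.25% of all genes. At an unadjusted p under 0.05 there were 663 genes (4.08%) and no member. The smallest p values belonged to Per3, at 28.7 ± 4.84 TPM in KO and 24.7 ± 5.51 TPM in KO Control (SD, n = 3 each), with a log2 difference of 0.22 (SE 0.161, adjusted p = 0.999), and to Dbp, with 0.16 (SE 0.132, adjusted p = 0.999). The 95% intervals still allowed sizeable differences, from -1.01 to 0.44 for Per2, against -0.18 to 0.28 for Tef. The median difference of the members was 0.04 beside 0.06 over all genes. Without KO Control replicate 1, the library with the high mitochondrial share, no member passed either. When libraries were instead weighted by their fit to their group, that library had a weight of 0.0818 and the others 0.236 to 4.05. Per2 (-0.77, adjusted p = 0.0168), Npas2 (-0.45, adjusted p = 0.0181) and Ciart (-0.43, adjusted p = 0.0329) then passed as lower in KO, where 13.3% of all genes passed. Without weights their differences were -0.29, -0.09 and 0.04, so Ciart changed sign.

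The KO mice were divided among themselves for Per2 and Nr1d1, but not in the same way for every member. KO replicate 3 held Per2 at 31.4 TPM and Nr1d1 at 115 TPM, whereas KO replicates 1 and 2 held Per2 at 16.2 and 14.3 TPM and Nr1d1 at 69.9 and 73.4 TPM. Per3 (31.4, 23.2 and 31.7 TPM in KO replicates 1, 2 and 3) and Nr1d2 (92.9, 92.1 and 87.6 TPM) did not follow this split. KO replicate 3 had the highest sum of 9 immediate-early genes in its group, at 1516 TPM against 572 and 705 TPM. Its sum of 10 glucocorticoid-responsive genes was the highest too, at 347 TPM against 200 and 213 TPM. In KO Control the low mouse for Per2 and Nr1d1, replicate 1, likewise had the lowest sums of the group. Its immediate-early sum was 586 TPM against 961 and 1256 TPM. Its glucocorticoid-responsive sum was 211 TPM against 315 and 337 TPM. That library had the size factor of 0.790. Its sums of markers of cortical excitatory neurons (633 against 1006 and 1077 TPM) and of astrocytes (398 against 488 and 554 TPM) were the lowest of its group too. Its leptomeningeal fibroblast sum was the highest (25.9 against 19.7 and 19.9 TPM). The part of library scale or of these lists in the clock gene levels was not tested.

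In R206W against R206W Control, 0 of 10 members passed the limma test, where 0.0369% of all genes did, and none had an unadjusted p under 0.05, against 357 genes. Ciart, with 42.5 ± 2.16 TPM in R206W and 35.9 ± 3.39 TPM in R206W Control, was the only member whose groups did not overlap, against 16.2% of all genes, so 1 of 10 was no more than the background. Its log2 difference was 0.24 (SE 0.212, adjusted p = 1). Nr1d2 had the smallest p, with a difference of -0.14 (SE 0.117, adjusted p = 1) and an interval from -0.39 to 0.10. Cry1 differed by -0.24 (interval -0.69 to 0.21). The median of the members was -0.01 beside 0.01 for all genes. R206W replicate 3 was the highest of its group for 9 members, Ciart being the exception, and it also had the highest immediate-early sum of all 17 mice, 2026 TPM against 369 to 1516 TPM in the others. Its size factor, 1.12, was the highest of the 17 libraries. After rescaling by size factors it lay below R206W replicate 1 for Dbp (86.8 against 91.5) and Tef (214 against 217) too. In R206W against R206W Control, 9 of 9 immediate-early genes lay above 0, with a median log2 difference of 0.52. Of 9 glucocorticoid-responsive genes tested, 1 lay above 0, with a median of -0.20. In both lists 0 genes passed the threshold. The part of library scale or of these lists in the clock gene levels was not tested.

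In P209L against P209L Control, Dbp gave the smallest p of the members. The 3 P209L mice averaged 57.1 ± 5.02 TPM (SD, n = 3) and the 2 littermates 91.2 ± 16.5 TPM (SD, n = 2), which is 62.6% of the control mean. The log2 difference was -0.66 (SE 0.147, interval -0.97 to -0.35), rank 52 of 16265 by p, with an unadjusted p of 0.000413 and an adjusted p of 0.128, so that 0 of 10 members passed with limma, where 0.0984% of all genes did, and Dbp was the only member among 1213 genes (7.46%) at an unadjusted p under 0.05. With TPM rescaled by size factors Dbp passed (-0.66, adjusted p = 0.0141), as it did after quantile normalization (-0.72, adjusted p = 0.0106) and with weighted libraries (-0.71, adjusted p = 0.00926), where 0.406%, 0.357% and 0.443% of all genes passed. The size rested in part on P209L Control replicate 2, since it was -0.48 (adjusted p = 1) without that mouse and -0.84 (adjusted p = 0.0986) without the other control.

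Markers of another cell type also separated the groups of this line. The 5 oligodendrocyte markers (Mbp, Mog, Mag, Mobp and Cnp), which encode myelin components or enzymes, summed to 2883 and 4383 TPM in the P209L Control mice and to 2063, 2553 and 1714 TPM in the P209L mice, and the mouse with the highest sum was also the mouse with the highest Dbp and the one with the choroid plexus RNA described above. Among the 3 P209L mice the order was inverse, the mouse with the highest sum having the lowest Dbp. Their median log2 difference was -0.87, with 0 of 5 above 0 and 0 of 5 past the threshold. In bulk tissue fewer cells of a type and less RNA per cell cannot be told apart. The sums of 10 glucocorticoid-responsive genes did not overlap either, at 210, 234 and 211 TPM in P209L against 197 and 198 TPM in P209L Control. Nor did those of 3 cerebellum markers, at 9.5, 13.1 and 11.2 TPM against 9.14 and 7.2 TPM. The part of these lists in the Dbp difference was not tested.

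Beside Dbp, 3 further members were lower in every P209L mouse than in both littermates, and 1 was higher. Nr1d1 measured 25.0 ± 3.79 TPM against 35.7 ± 4.67 TPM (log2 difference -0.50, SE 0.259, adjusted p = 0.726), and Ciart and Tef differed by -0.32 and -0.12. Npas2 measured 13.4 ± 2.98 TPM against 10.3 ± 0.163 TPM (0.33, SE 0.228, adjusted p = 0.837). The groups did not overlap in 5 of 10 members against 24.9% of all genes. None of these 4 differences passed the test, and after rescaling by size factors Ciart overlapped, at 31.4 in P209L replicate 1 and 30.9 in P209L Control replicate 2. Without P209L Control replicate 2 the differences of Nr1d1 and Ciart were -0.37 and -0.47. Per2 in P209L replicate 1, at 25.7 TPM, stood well above the 11.2 and 10.5 TPM of the other mutants, and its interval in this comparison ran from -0.71 to 0.91. The median of the members was 0.04 beside 0.02 for all genes.

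**Figure D2:**
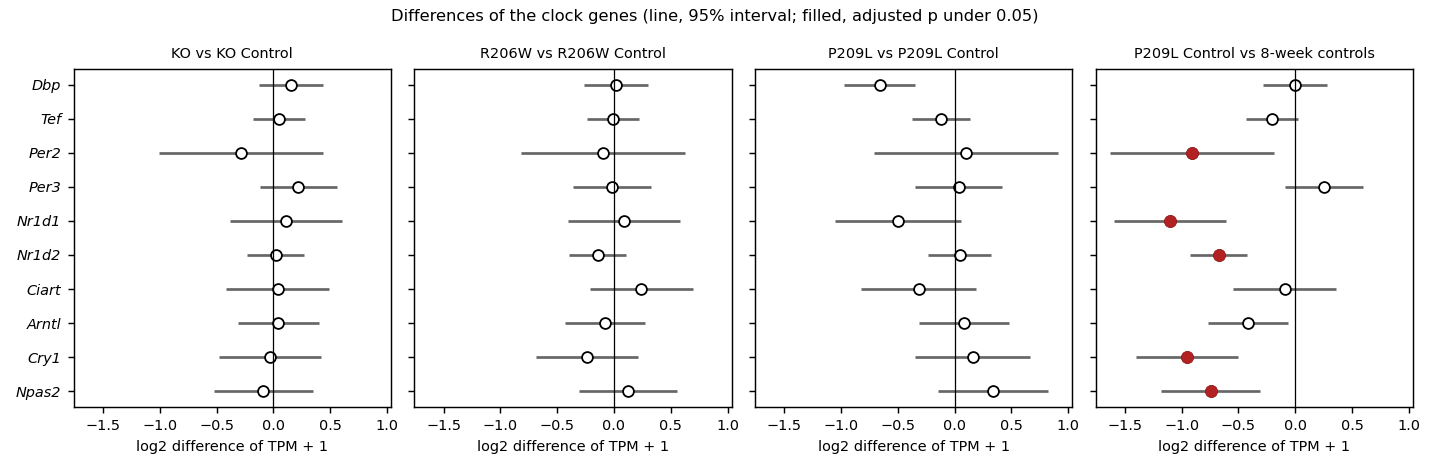
Log2 difference of TPM + 1 (x axis) of each clock gene (y axis) in 4 comparisons, with 95% intervals as lines and filled points for an adjusted p under 0.05 with limma. No interval of the 3 mutant comparisons belongs to a filled point, and the 5 filled points are Per2, Nr1d1, Nr1d2, Cry1 and Npas2 in 3-week against 8-week wild-type mice.

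The effects of the alleles on the clock genes were also compared directly. The KO and R206W effects differed for 0 of 10 members with limma (0.0307% of all genes, 373 genes at an unadjusted p under 0.05), with Per3 nearest at 0.24 (SE 0.228, adjusted p = 1) and Nr1d2 next at 0.16. The KO and P209L effects differed for 0 of 10 members (0.0492% of all genes, 1298 genes unadjusted), where Dbp gave 0.82 (SE 0.198, unadjusted p = 0.000827, adjusted p = 0.242) and Nr1d1 0.61 (SE 0.348, adjusted p = 0.676). The R206W and P209L effects differed for 0 of 10 members and for 0% of all genes (647 genes unadjusted), where Dbp gave 0.68 (SE 0.198, unadjusted p = 0.00356, adjusted p = 1.00) and Ciart 0.56 (SE 0.318, adjusted p = 1.00). Both contrasts for Dbp use the same P209L effect, so they are not independent, and age and allele cannot be told apart in them. With weighted libraries the KO and P209L effects on Dbp differed (0.74, adjusted p = 0.0158), where 2.11% of all genes did, and the KO and R206W effects on Ciart differed (-0.71, adjusted p = 0.0379, against -0.20 without weights), where 1.96% of all genes did.

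Among wild-type mice of the same age, the lines were compared to see how far the clock genes varied without a mutation. In R206W Control against KO Control, 0 of 10 members passed with limma, where 0% of all genes did and 507 genes had an unadjusted p under 0.05. Cry1 had the smallest p and was the only member whose groups did not overlap (9.07% of all genes did not), with 15.4 ± 0.386 TPM in R206W Control and 10.8 ± 3.79 TPM in KO Control. The log2 difference was 0.53 (SE 0.212, unadjusted p = 0.0243, adjusted p = 0.784), and it was 0.24 without KO Control replicate 1. Nr1d2 came next at 0.21 (SE 0.117, adjusted p = 0.784). All 10 members were above 0 in this comparison with a median of 0.16, but the median of all genes was 0.13, and after rescaling by size factors 5 of 10 were above 0 with a median of 0.02. The glucocorticoid-responsive sum was 366 to 412 TPM in R206W Control and 211 to 337 TPM in KO Control, and its part in the Cry1 difference was not tested. A limma F test for any difference among the 4 groups at 8 weeks called 0 of 10 members (0.0615% of all genes, 805 genes at an unadjusted p under 0.05), with Cry1 (adjusted p = 0.884) and Npas2 (adjusted p = 0.884) nearest. With weighted libraries this test called 4 members (Per2, Ciart, Cry1 and Npas2) and 15.4% of all genes.

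More clock genes, and a larger share of all genes, passed between wild-type mice of 3 and 8 weeks than between any mutant and its littermates. That share was 36.1%, against 0.0984% or less in the mutants, so the larger count was not particular to the clock genes. In P209L Control against the 6 wild-type mice of 8 weeks, 5 of 10 members were lower and 0 were higher, where 36.1% of all genes passed with limma (4039 lower, 1837 higher). Nr1d1 showed the largest difference of the members, from 49.7, 79.6 and 104 TPM (lowest, median and highest) in the older mice to 32.4 and 39.0 TPM in the younger (log2 difference -1.11, SE 0.232, adjusted p = 0.00217). Cry1 went from 6.61, 14.5 and 15.7 TPM to 5.83 and 6.26 TPM (-0.95, SE 0.212, adjusted p = 0.00308). Nr1d2 was lower by a smaller amount with less spread (-0.67, SE 0.117, adjusted p = 0.000591), and Npas2 by -0.74 (SE 0.204, adjusted p = 0.0107). Per2 was just past the threshold (-0.91, SE 0.340, adjusted p = 0.0482) and lost the call in 12 of 19 alternatives.

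The other 5 members did not pass at 3 weeks. Dbp was level with the older wild-type mice on the deposited scale (-0.005, interval -0.29 to 0.28), at 91.2 ± 16.5 TPM against 91.3 ± 9.94 TPM (SD, n = 6). After rescaling by size factors its difference was 0.14 (SE 0.0991, adjusted p = 0.284 with limma). Ciart and Tef had differences of -0.09 and -0.20, Arntl of -0.42 (SE 0.167, adjusted p = 0.0629) and Per3 of 0.26 (SE 0.161, adjusted p = 0.227). Groups did not overlap for 6 members, the 5 that passed and Per3 as the only one higher, against 38.2% of all genes. The members' median was -0.55 beside -0.12 over all genes. After rescaling by size factors, which brought the median of all genes close to 0, the members' median was -0.41, and Nr1d1, Nr1d2, Cry1, Npas2 and Arntl were lower and Per3 higher (0.39, adjusted p = 0.0104), 6 of 10 where 44.1% of all genes passed. Without P209L Control replicate 2, Nr1d1 (-1.24), Nr1d2 (-0.67) and Cry1 (-0.998) passed, where 16.7% of all genes did. The younger wild-type mice also had the lower glucocorticoid-responsive sums, 197 and 198 TPM against 211 to 412 TPM, and the higher oligodendrocyte sums, 2883 and 4383 TPM against 2033 to 2695 TPM. Sums of 3 microglia markers (72.95 and 88.1 TPM against 105.9 to 127 TPM) and of 4 leptomeningeal fibroblast markers (27.2 and 30.5 TPM against 19.7 to 26.7 TPM) did not overlap either. The same held for 3 cerebellum markers (9.14 and 7.2 TPM against 3.45 to 5.56 TPM). The part of these lists in the clock gene levels was not tested. Line, age and any difference in hour of dissection cannot be told apart here, since the 3-week mice were all of the P209L line.

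None of 16 further clock genes, all tested, passed in KO, R206W, P209L or between the wild-type groups of 8 weeks. The smallest p among them belonged to Arntl2, an activator related to Arntl, in KO (0.35, adjusted p = 0.999), to Bhlhe41, a repressor at E-boxes, in R206W (-0.23, adjusted p = 1), to Hlf, the third PAR bZIP factor, in P209L (0.48, adjusted p = 0.599), and to Bhlhe41 again between the wild-type groups (0.38, adjusted p = 0.784). Hlf was at 66.4, 64.0 and 86.3 TPM in the P209L mice and at 52.1 and 49.6 TPM in their littermates, so that its values lay in the opposite direction to those of Dbp and Tef. At 3 weeks 8 of 16 were lower and 0 were higher, where 36.1% of all genes passed, led by Bhlhe40 (-1.81, adjusted p = 0.000652), Bhlhe41 (-1.23, adjusted p = 0.000195), Rora (-1.16, adjusted p = 3.48e-05), an activator at the element that REV-ERB proteins repress, Hlf (-1.07, adjusted p = 0.000489) and Clock (-0.88, adjusted p = 0.000219). Fbxl21 (-0.84), Btrc (-0.79) and Csnk1d (-0.51), which act in the turnover or phosphorylation of PER and CRY proteins, were the other 3.

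Within groups, the members fell into even and uneven genes. The residual SD of Per2 around its group means was 0.483 on the log2 scale (11 degrees of freedom), higher than 97.4% of all genes tested and 99.2% of the 3089 genes of like level (within 0.5 log2). Nr1d1 (0.320), Ciart (0.289), Cry1 (0.286) and Npas2 (0.276) were at percentiles of 96.0, 90.6, 88.0 and 87.0 among genes of like level. Tef (0.117), Nr1d2 (0.133) and Dbp (0.159) lay below the middle, at percentiles of 16.8, 25.3 and 40.6. In all, 7 of 10 members exceeded the median SD of genes of like level, which splits all genes evenly by construction, and 5 of 10 did after rescaling by size factors. Per2 kept its place under that scaling (0.450, percentile 99.2 of like genes), while Tef came down to 0.0464. Without KO Control replicate 1, on the deposited scale, Per2 was at 0.441 (percentile 99.3 of like genes), Nr1d1 at 0.229 (94.3) and Tef at 0.0588 (3.94), and 8 of 10 members exceeded the median.

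**Figure D3:**
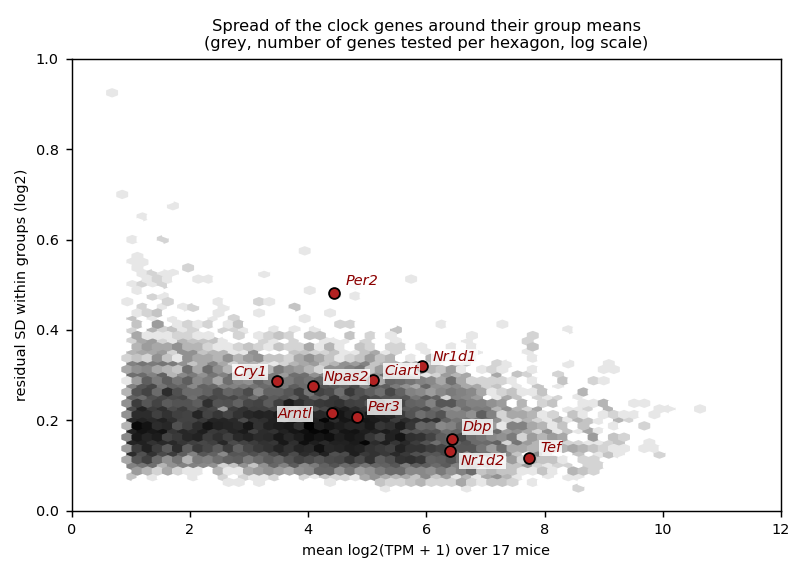
Residual SD of log2(TPM + 1) around group means (y axis) against mean log2(TPM + 1) over 17 mice (x axis) for each clock gene (red points), over a grey density of the 16265 genes tested. Per2 (0.483) stands at the upper edge of the cloud for its level and Tef (0.117), Nr1d2 (0.133) and Dbp (0.159) in its lower part.

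Mouse by mouse, the day-peaking and the dawn-peaking genes varied together. Each mouse was described by the mean log2 deviation of Dbp, Tef, Per2, Per3, Nr1d1, Nr1d2 and Ciart, and of Arntl, Cry1 and Npas2, from mice of its own age. KO Control replicate 1 was lowest in both (-0.49 and -0.64) with 10 of 10 members below the mean of its age. KO replicate 2 was also below for 10 of 10 members (-0.22 and -0.34) and KO replicate 1 for 7 (-0.14 and -0.26). R206W replicate 3 had no member below (0.20 and 0.36), and KO replicate 3 had 1, Nr1d2 (0.25 and 0.13). At 3 weeks P209L replicate 2 was below for 10 of 10 members (-0.22 and -0.10). Relative to mice of the same age, the 2 arms went opposite ways in P209L replicate 3 (-0.04 and 0.23) and in both P209L Control mice (0.09 and -0.13, and 0.16 and -0.10), and on the deposited scale in no 8-week mouse. This depends on the baseline, which at 3 weeks joins mutants and controls. Relative to its own group, each of those younger mice had both arms on 1 side (0.04 and 0.15 in P209L replicate 3). The 2 P209L Control mice mirror each other on this baseline by construction, so they are 1 observation. The arms then split in R206W Control replicates 1 (-0.04 and 0.03), 2 (-0.03 and 0.001) and 3 (0.07 and -0.03).

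**Figure D4:**
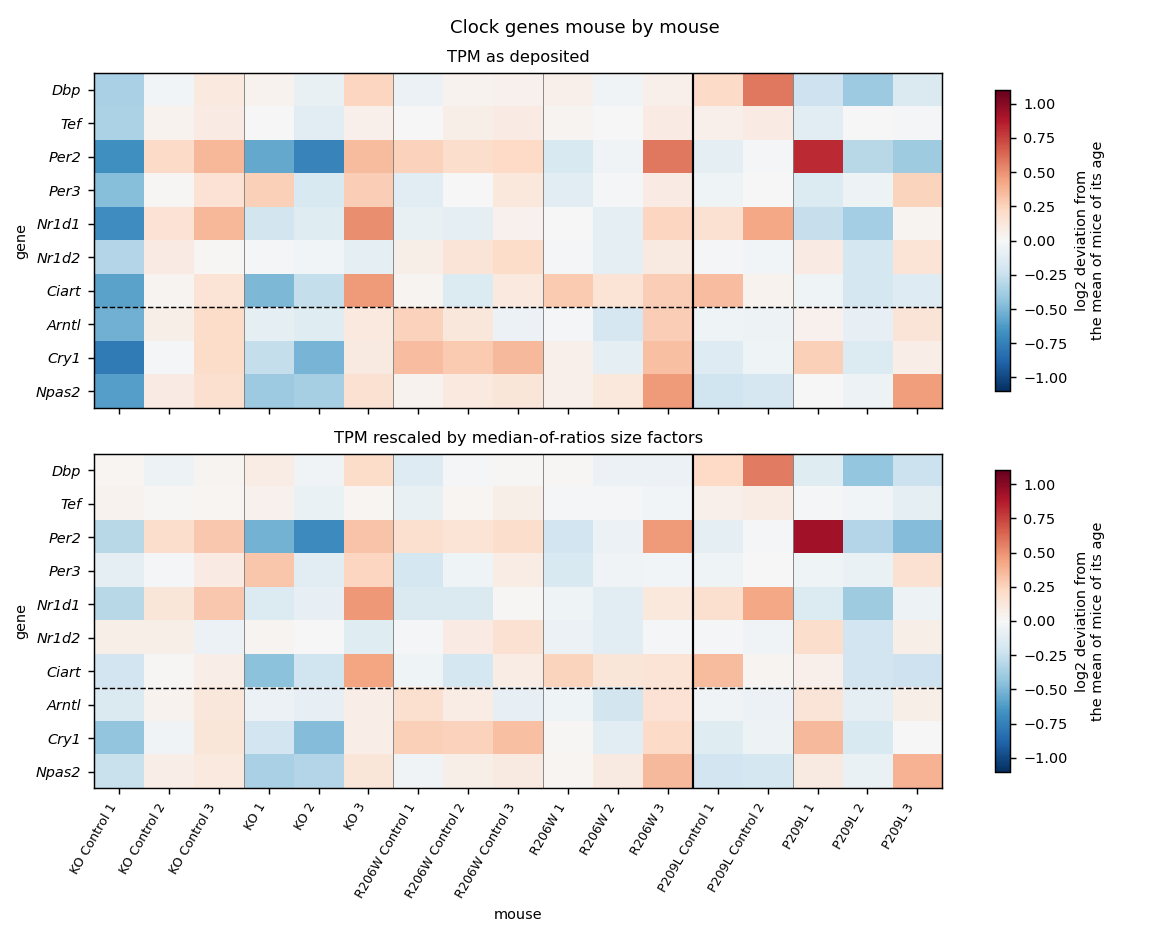
Log2 deviation of each clock gene (rows) in each mouse (columns) from the mean of mice of the same age, as deposited (top) and rescaled by size factors (bottom), red for above and blue for below; the dashed line parts the day-peaking genes from Arntl, Cry1 and Npas2, and the thick line parts the ages. KO Control 1 is blue in every row of the top panel, and KO 2 and P209L 2 are below the mean of their age for all 10 members there.

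The shift of KO Control replicate 1 was smaller after rescaling by size factors, with means of -0.11 and -0.28 and 7 of 10 members below, and R206W replicate 3 then had 4 members below. KO replicate 2 (9 of 10 members below, -0.18 and -0.30), KO replicate 1 (-0.09 and -0.21) and P209L replicate 2 (10 of 10, -0.24 and -0.12) stayed low in both arms, and KO replicate 3 stayed high in both (0.22 and 0.09). On this scale, relative to mice of the same age, the arms went opposite ways in 2 of the 12 mice of 8 weeks, R206W Control replicates 1 (-0.07 and 0.14) and 2 (-0.02 and 0.13), beside the same 3 mice of 3 weeks. Relative to its own group, P209L replicate 3 was then split as well (-0.04 and 0.07).

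With group means removed, all 45 pairs of members had a positive Pearson r over 17 mice, with a median of 0.74, where 66.8% of all gene pairs did, with a median of 0.24. These values describe libraries that share their scale, and no p is given. The median r was 0.75 for the 21 pairs across the 2 arms, 0.62 for the 21 pairs within the day-peaking arm and 0.83 for the 3 pairs among Arntl, Cry1 and Npas2, so that pairs across the arms lay between those within either. The highest value was that of Nr1d1 and Npas2 (0.95), which belong to unlike arms, and the lowest that of Nr1d2 and Ciart (0.36). Without KO Control replicate 1, 43 of 45 pairs were positive with a median of 0.50, where 56.9% of all gene pairs were with a median of 0.0875, and Nr1d2 and Ciart were then at -0.05. After rescaling, 41 of 45 pairs stayed positive with a median of 0.43, where 49.9% of all gene pairs did with a median of -0.001. Tef and Arntl were then the most negative pair (-0.29), and Nr1d1 and Npas2 still the most positive (0.90). On the rescaled values without KO Control replicate 1, 42 of 45 pairs were positive, where 49.8% of all gene pairs were. Among the 12 mice of 8 weeks, 45 of 45 pairs were positive as deposited, where 66.1% of all gene pairs were. In the same mice 36 of 45 were positive after rescaling, where 49.97% of all gene pairs were.

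**Figure D5:**
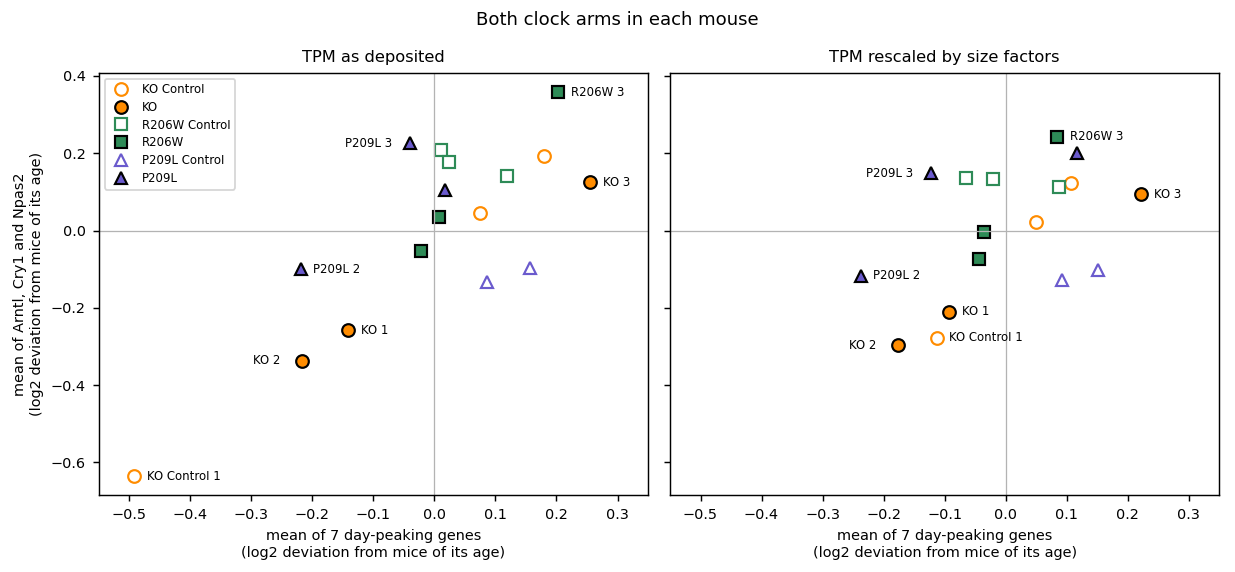
Mean log2 deviation of Arntl, Cry1 and Npas2 (y axis) against that of the 7 day-peaking clock genes (x axis) for each of 17 mice, relative to mice of the same age, as deposited (left) and rescaled by size factors (right); open symbols are wild-type mice and filled symbols mutants. KO Control 1 lies lowest on the left (-0.49 and -0.64) and moves to -0.11 and -0.28 on the right, while KO 1, KO 2 and P209L 2 stay below 0 on both axes.

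Outside the 10 members, which were left out of this ranking, the genes most like Dbp over the 17 mice were Igfbp7 (0.96), Tmem204 (0.94), Alad (0.94), Eps8l2 (0.94) and Ttyh2 (0.94), by Pearson r with group means removed. After rescaling they were Itga7 (0.90), Banf1 (0.88), Chrdl1 (0.86), Slc12a4 (0.85) and Gm49325 (0.84), so none of the first 5 was kept. The genes most like Arntl were Car10 (0.98), Rrs1 (0.98), Elavl1 (0.97), Nup98 (0.97) and Sel1l (0.97), and 4 of these 5 were again among the nearest 5 after rescaling, with Car10 first in both (0.96). None of these genes is among the 16 further clock genes, which could have been ranked.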

How the data were processed

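Total RNA from flash-frozen cortex of 17 mice was made into stranded libraries (TruSeq Stranded Total RNA Kit) and sequenced by the authors. The authors deposited 1 table of TPM per gene. The submitters' processing notes name Trim Galore, STAR 2.7.1a, GATK 4.0.4.0 and RSEM with the mm10 build, but not their settings. The TPM columns sum to between 999999 and 1000000, so read depth is unknown and a gene's TPM depends on all others.

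Groups and replicate numbers were taken from the sample labels. The study describes 3 mice per group, and 2 P209L Control mice were analysed here. Genes with a mean of at least 1 TPM (16265) were analysed on the log2(TPM + 1) scale, which understates changes of low genes, with limma 3.58.1 in R 4.3.3, using 1 mean per group, empirical Bayes moderation with a trend (11 residual degrees of freedom before moderation), two-sided tests and Benjamini-Hochberg adjustment over all 16265 genes. The threshold was an adjusted p of 0.05. P209L Control was compared with the mean of both 8-week control groups. Alternatives were other pseudocounts (0.1 and 0.5), filters, scalings (median-of-ratios size factors, quantile normalization, mitochondrial genes removed), sample weights, robust moderation, a replicate block, fits of the compared groups alone, and each mouse left out. Deviations per mouse, pairwise r and residual SD are descriptions without a test. The fit was checked on simulated data.

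The 10 members and the gene lists were chosen with earlier results of these data known. Some genes of the lists are not reported here and were left out of their counts and sums. Each comparison names every member past the threshold or, where none passed, the 2 members with the smallest p. Genes like Dbp and Arntl are the 5 with the highest r after the members were left out. For the further clock genes the same rule named those past the threshold or the 1 with the smallest p. The labels describe the mice as separate animals and give no batch, date or hour of collection. Gene positions were matched by symbol.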

Additional observations from a re-analysis of the deposited data

Results flagged for a closer look

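Ciart lay higher in every R206W mouse than in every R206W Control mouse (log2 difference 0.24) and lower in every P209L mouse than in both P209L Control mice (-0.32), so that on the deposited scale every mouse of one knockin lay one way and every mouse of the other the opposite way. After rescaling by size factors the P209L groups overlapped, with Ciart at 31.4 in P209L replicate 1 and 30.9 in P209L Control replicate 2. The direct test of the difference between the R206W and P209L effects gave 0.56 (SE 0.318, unadjusted p = 0.0994, adjusted p = 1.00 with limma) and did not pass. Age and allele cannot be told apart in this contrast, and 16.2% and 24.9% of all genes showed groups without overlap in the respective comparisons.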

How the results depend on the processing

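Of 614 alternative values for 32 results, 585 kept their direction and their side of the threshold or, for counts, stayed within 1.5 times, and none reversed. Those results are counts and the members named in each comparison by the rule above. Signs of other members did change, as for Ciart in KO (-0.43 to 0.24 over the alternatives) and Nr1d1 in KO (-0.32 to 0.32). With sample weights, the count of members past the threshold became 3 in KO (0 otherwise, 13.3% of all genes), 1 in P209L (Dbp, 0.443%), 1 for the KO effect minus the R206W effect (Ciart, -0.71, 1.96%), 1 for the KO effect minus the P209L effect (Dbp, 2.11%) and 4 among the 8-week groups (15.4%). With size factors and with quantile normalization it became 1 in P209L (Dbp), where 0.406% and 0.357% of all genes passed. The cause was not tested. The weights ran from 0.0818 for KO Control replicate 1 to 4.05 for KO Control replicate 2. Leaving out each mouse in turn gave 3 to 7 members past the threshold at 3 against 8 weeks (5 with all mice) and 0 in every other comparison. The share of all genes at 3 against 8 weeks moved as well, from 16.7% without P209L Control replicate 2 to 50.3% without KO Control replicate 1, where 7 members passed. The low value of 3 arose without either P209L Control mouse, where 1 control is left and assumed to vary like the other groups. The spread count ranged from 6 to 8 when each mouse was left out.

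Same-numbered mice did not deviate together (r from -0.113 to 0.331), so the numbers were not taken to pair the mice. With the replicate block, 0 members passed in every comparison of mutants and between the 8-week controls, and 4 passed at 3 weeks (36.2% of all genes), where Per2 missed (-0.80, adjusted p = 0.0803). Limits were the unknown depth, 2 or 3 mice a group and the missing hour of collection. TPM cannot separate a lower library scale from lower expression, and a p that misses the threshold does not show equality.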
